A study of Mus musculus with 9 samples.

Results

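Neutrophils carry a set of late granule and surface proteins that are made late in their development or carried by the mature cell. The genes described here are 8 of that set, namely Camp, Ltf, Ngp, Lcn2, Chil3, Cd177, Ly6g and Retnlg. They were taken by name from a count table of 56860 genes; all 8 are in it and all 8 passed the filter on low counts, which kept 19348 genes for testing. The 8 were chosen with the counts of these same libraries in view. Their levels and the differences between groups are therefore given as a description, with no test, and tests are given only for other genes.

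The libraries are RNA-seq of spleen cells labelled CD4+ T cells from mice, in 3 groups of 3. The groups are CIA mice given luteolin, a plant flavone, CIA mice without it, and control mice. The series title speaks of RA and of Th17 differentiation, and the labels give no strain, age, dose or number of animals per library. Since nothing says that replicates are separate animals, p-values measure only the spread between these samples, which may be technical. Total counts per library were between 31234177 and 41815573. Levels are given as CPM, the counts scaled to library size and composition, and differences are log2 fold changes ± SE from edgeR, as are the sizes of rises and falls.

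Granules are filled in a fixed order as a neutrophil matures in the bone marrow. The promyelocyte packs azurophil granules with myeloperoxidase and serine proteases, the myelocyte and metamyelocyte pack specific granules with lactoferrin, cathelicidin and lipocalin, and the band cell packs gelatinase granules. Surface proteins such as LY6G and secreted proteins such as the resistin-like Retnlg product come with the last steps, and in mice the factor C/EBP-epsilon (Cebpe) is required for the specific granule genes. The spleen holds mature neutrophils and, in inflammation, can also hold their precursors.

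The 8 genes lie on 6 chromosomes, and the model of none of them shares exonic bases with another gene in the table. In build mm39, Camp (chromosome 9, 109676447 to 109678685, minus strand), Ngp (chromosome 9, 110248815 to 110252080, plus strand) and Ltf (chromosome 9, 110848339 to 110871835, plus strand) fall within 1195389 bases. The others are Lcn2 (chromosome 2, 32274645 to 32278264, minus strand), Chil3 (chromosome 3, 106054870 to 106074880, minus strand), Cd177 (chromosome 7, 24443408 to 24459736, minus strand), Ly6g (chromosome 15, 75027089 to 75030975, plus strand) and Retnlg (chromosome 16, 48692984 to 48694859, plus strand).

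The promoters of 5 of the genes are printed because Ngp, Ltf, Chil3 and Camp differed between the groups in one way and Retnlg in another. Each is the RefSeq window of build GRCm38.p6 from 250 bases before the gene's start to 50 after it, written 5′ to 3′ on the gene's strand, with matches to the C/EBP core TTNNGNAA or its reverse complement TTNCNNAA in capitals. The windows are chr9:110419558-110419857 for Ngp, chr9:111019042-111019341 for Ltf, chr3:106167515-106167814 for Chil3, chr9:109849407-109849706 for Camp and chr16:48872358-48872657 for Retnlg.
Ngp: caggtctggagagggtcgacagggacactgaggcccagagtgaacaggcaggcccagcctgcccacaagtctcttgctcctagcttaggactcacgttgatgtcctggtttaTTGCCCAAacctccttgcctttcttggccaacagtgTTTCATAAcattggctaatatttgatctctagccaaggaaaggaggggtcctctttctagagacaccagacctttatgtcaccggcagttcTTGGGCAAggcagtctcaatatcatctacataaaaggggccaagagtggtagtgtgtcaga
Ltf: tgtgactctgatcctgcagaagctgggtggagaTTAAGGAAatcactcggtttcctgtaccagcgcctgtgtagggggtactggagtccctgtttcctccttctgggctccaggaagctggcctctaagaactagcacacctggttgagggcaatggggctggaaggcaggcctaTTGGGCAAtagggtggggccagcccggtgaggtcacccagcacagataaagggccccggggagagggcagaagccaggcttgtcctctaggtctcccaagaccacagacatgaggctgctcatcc
Chil3: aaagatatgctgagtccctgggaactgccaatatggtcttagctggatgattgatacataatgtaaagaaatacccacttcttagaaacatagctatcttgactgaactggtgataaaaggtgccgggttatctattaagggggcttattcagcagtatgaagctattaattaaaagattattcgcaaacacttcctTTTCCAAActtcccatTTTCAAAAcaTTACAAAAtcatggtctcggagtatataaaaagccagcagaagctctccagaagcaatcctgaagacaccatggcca
Camp: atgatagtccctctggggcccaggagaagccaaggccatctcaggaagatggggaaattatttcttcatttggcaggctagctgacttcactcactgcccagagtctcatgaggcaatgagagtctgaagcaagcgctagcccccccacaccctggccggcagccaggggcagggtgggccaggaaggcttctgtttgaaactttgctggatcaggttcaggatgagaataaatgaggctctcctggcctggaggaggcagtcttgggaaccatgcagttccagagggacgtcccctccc
Retnlg: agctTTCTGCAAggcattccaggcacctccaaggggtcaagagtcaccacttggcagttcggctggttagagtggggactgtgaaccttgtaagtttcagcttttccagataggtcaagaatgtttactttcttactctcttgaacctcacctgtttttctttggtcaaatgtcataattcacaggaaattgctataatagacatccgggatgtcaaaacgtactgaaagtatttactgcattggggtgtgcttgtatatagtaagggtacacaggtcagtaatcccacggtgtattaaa

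Ngp and Ltf carry the same 8 letters, TTGGGCAA, at positions -11 and -75 from the start, and Ngp carries their reverse complement, TTGCCCAA, at -138. Chil3 has 3 matches, at -53, -37 and -27, and Retnlg has 1 match near the far end of its window, at -246. The Camp window has none. Windows were found for all 8 genes, 9 windows in all because Ly6g has 2, and 7 of the 8 genes hold a C/EBP match, as do 40.7% of the 32851 mouse promoter windows in the table. The PU.1 letters GAGGAAG or CTTCCTC were found in Lcn2 and Ly6g and in 13.6% of windows. The AP-1 letters TGANTCA were in none of the 8 genes and in 7.81% of windows. These matches are letters in a window and were not tested as binding sites.

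Before the results, the labels were set against marker genes. Cd4 was at 106, 106 and 98.5 CPM in CIA with luteolin, at 82.1, 151 and 150 CPM in CIA, and at 3.65, 2.46 and 2.66 CPM in the libraries labelled control, which go against the CD4+ label. S100a9, an abundant transcript of neutrophils, was at 3784 to 4287 CPM, 4783 to 8339 CPM and 1503 to 1928 CPM in CIA with luteolin, CIA and the libraries labelled control. The summed level of 12 T cell markers was below S100a9 in every library, at 433 to 460, 446 to 720 and 242 to 268 CPM. None of the groups can therefore be taken as CD4+ T cells alone. In CIA against control 10 of the 12 rose, beside 26.6% of tested genes, while Cd8a fell, with means of 4.8 and 17.6 CPM. Lck, with means of 84 and 82 CPM, did not pass an adjusted p of 0.05 (edgeR). Every difference against control rests on libraries whose Cd4 level is low. In bulk RNA, fewer cells of a type and less RNA per cell cannot be told apart. The CIA libraries were the most uneven. Their summed level of 10 B cell markers was 1824, 1051 and 308 CPM in replicates 1, 2 and 3, and replicate 1 was also the lowest CIA library for 8 of the 8 genes.

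Together the 8 genes summed to 4201, 4087 and 4267 CPM in CIA with luteolin, to 969, 1428 and 1643 CPM in CIA, and to 355, 365 and 404 CPM in the libraries labelled control. The groups do not overlap. The log2 ratio of the mean sums was 1.64 for CIA with luteolin against CIA, 1.85 for CIA against control and 3.48 for CIA with luteolin against control. These comparisons share libraries and are not independent of each other. Every one of the 8 genes was higher with no overlap in CIA against control, beside 29.7% of all tested genes that were higher without overlap. With luteolin against CIA, 4 were higher and 3 lower without overlap, beside 28.0% and 27.7% of all tested genes, and Cd177 overlapped. All 8 were higher without overlap in CIA with luteolin against control, beside 32.3% of tested genes. Nothing is read from these shares, since the genes were chosen on the same counts.

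**Figure D1:**
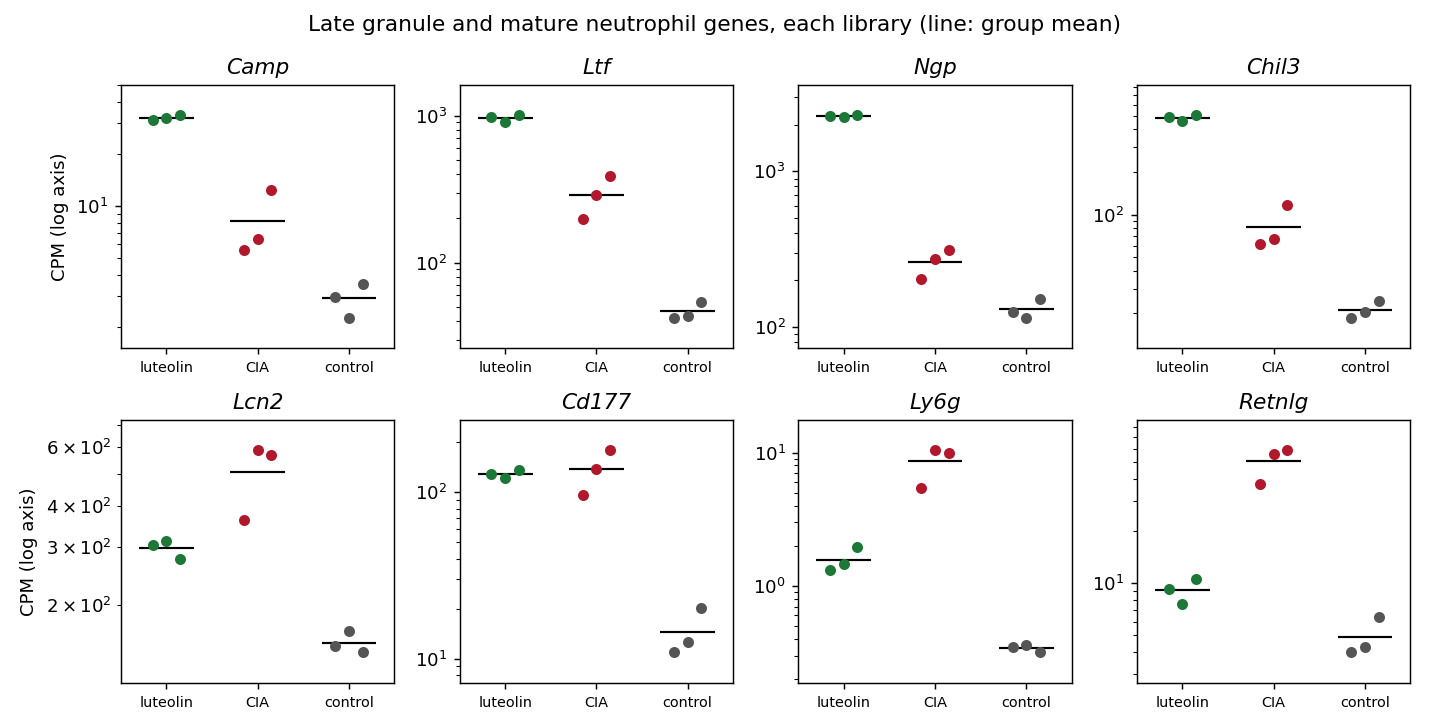
CPM of each gene in each library (log axis, each panel with its own range), with CIA with luteolin, CIA and control from left to right and a line at the group mean. Camp, Ltf, Ngp and Chil3 step down from left to right, with Ngp at 2242 to 2299, 204 to 312 and 114 to 150 CPM, whereas Ly6g and Retnlg are highest in the middle group.

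Of the 8 genes, Ngp, Ltf, Camp and Chil3 were higher in CIA with luteolin than in CIA. Ngp, which encodes a small granule protein related to cystatins, had 2263, 2242 and 2299 CPM in CIA with luteolin, 204, 271 and 312 CPM in CIA, and 125, 114 and 150 CPM in the libraries labelled control. The treated libraries lay close together and far above every other library. Its log2 fold change was 3.11 ± 0.15 for CIA with luteolin against CIA, an 8.65-fold difference, and 1.02 ± 0.14 for CIA against control. Of the 8 genes, Ngp had the smallest difference between CIA and control and the largest between treated and untreated CIA.

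Ltf encodes lactoferrin, the iron-binding protein that defines specific granules. It was at 973, 906 and 1006 CPM in CIA with luteolin, at 197, 290 and 386 CPM in CIA, and at 42.2, 43.7 and 54.2 CPM in the libraries labelled control. All 3 groups are separate, and the spread in CIA is wide. Its log2 fold change was 1.73 ± 0.20 for CIA with luteolin against CIA and 2.64 ± 0.21 for CIA against control, so 4.36 ± 0.22 lay between the outer groups, a 20.6-fold difference.

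Camp encodes the cathelicidin precursor, from which proteases release an antimicrobial peptide. Camp had 31.4, 32.1 and 33.5 CPM in CIA with luteolin, 5.56, 6.44 and 12.4 CPM in CIA, and 2.98, 2.25 and 3.54 CPM in the libraries labelled control. The groups are again in one order, with CIA replicate 3 well above the other CIA libraries. Between CIA with luteolin and CIA the log2 fold change was 1.99 ± 0.26, and it was 1.48 ± 0.28 for CIA against control.

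Chil3 encodes the chitinase-like protein YM1, made by neutrophil precursors and also by monocytes and macrophages. It was at 489, 462 and 503 CPM in CIA with luteolin, at 61.7, 67.6 and 116 CPM in CIA, and at 18.6, 20.5 and 24.4 CPM in the libraries labelled control. The highest CIA library is again replicate 3, and no groups overlap. Its log2 fold change was 2.57 ± 0.21 for CIA with luteolin against CIA, 1.95 ± 0.21 for CIA against control and 4.52 ± 0.23 between the outer groups. That last value, a 22.9-fold difference, is the largest of the 8 genes for CIA with luteolin against control. Reads of its close relative Chil4 were few, with 4, 15 and 8 counts in CIA with luteolin, 0, 2 and 0 in CIA and none in the libraries labelled control.

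Lcn2 encodes lipocalin 2, a specific granule protein that binds bacterial siderophores and is also made by many other cells in inflammation. Unlike the 4 genes above, it was lower with luteolin, at 303, 313 and 277 CPM, against 362, 588 and 568 CPM in CIA. The libraries labelled control had 151, 167 and 144 CPM. CIA replicate 1 lies closer to the treated libraries than to the other CIA libraries. Its log2 fold change was -0.76 ± 0.16 for CIA with luteolin against CIA and 1.71 ± 0.16 for CIA against control.

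Cd177 encodes a membrane glycoprotein of neutrophils that is stored with the specific granules. It was at 130, 123 and 136 CPM in CIA with luteolin, at 96.0, 138 and 180 CPM in CIA, and at 10.9, 12.6 and 20.3 CPM in the libraries labelled control. The treated libraries lie inside the range of CIA, and both stand clear of control. This gave a log2 fold change of -0.09 ± 0.24 for CIA with luteolin against CIA and 3.25 ± 0.26 for CIA against control, a 9.49-fold difference.

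Ly6g encodes the surface antigen by which mouse neutrophils are sorted. Its counts were low, 55, 58 and 66 in CIA with luteolin, 196, 357 and 298 in CIA and 14, 14 and 10 in the libraries labelled control. In CPM these are 1.31, 1.46 and 1.96, then 5.45, 10.4 and 9.86, then 0.350, 0.359 and 0.316, in the same order of groups. CIA is highest and no groups overlap. The log2 fold change was -2.45 ± 0.26 for CIA with luteolin against CIA and 4.63 ± 0.31 for CIA against control, which at 24.8-fold is the largest of the 8 genes in that comparison.

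Retnlg encodes resistin-like gamma, a secreted protein of bone marrow and blood neutrophils. It had 9.26, 7.60 and 10.6 CPM in CIA with luteolin, 37.8, 56.0 and 59.0 CPM in CIA, and 3.98, 4.30 and 6.39 CPM in the libraries labelled control. It has the same order of groups as Ly6g. The log2 fold change was -2.48 ± 0.22 for CIA with luteolin against CIA, 3.39 ± 0.23 for CIA against control and 0.91 ± 0.22 between the outer groups. Its relatives Retnla and Retnlb had at most 2 counts in any library.

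**Figure D2:**
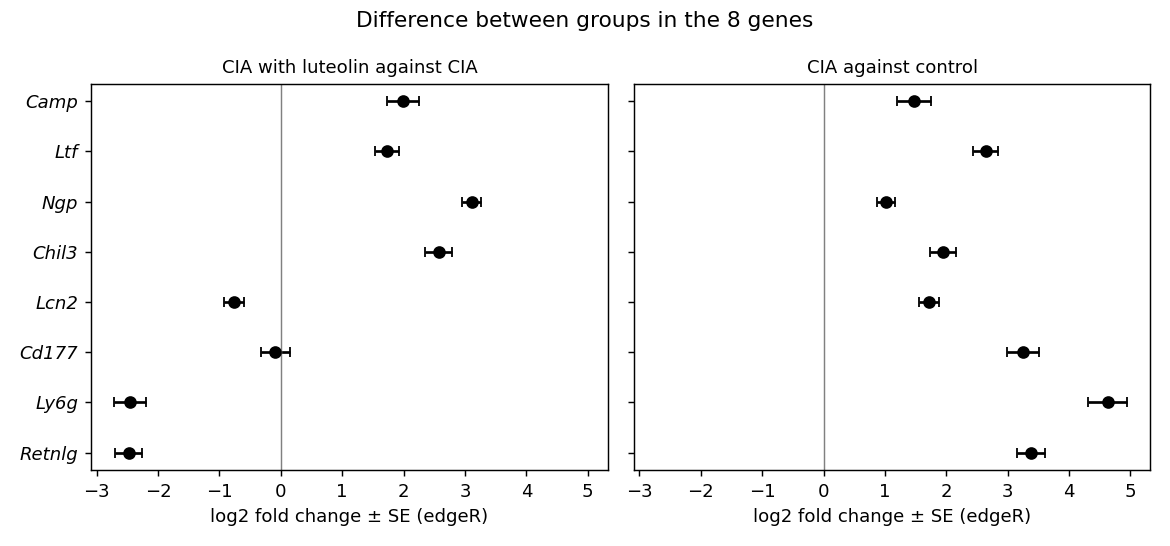
Log2 fold change ± SE (points and bars, edgeR) of each gene in CIA with luteolin against CIA (left) and in CIA against control (right). In the right panel all 8 lie above 0, between 1.02 and 4.63, whereas in the left panel they run from -2.48 for Retnlg to 3.11 for Ngp.

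The mixture of the 8 transcripts differed between groups as well as their sum. On the scale of CPM per kilobase of exon, on which genes can be compared, Ngp was the highest of the 8 in each group. It was at 1856 ± 23.5 per kilobase in CIA with luteolin, 215 ± 44.6 in CIA and 106 ± 15.2 in the libraries labelled control (SD, n = 3). With luteolin the order after Ngp was Chil3 at 297 ± 13 and Ltf at 279 ± 14.8, whose libraries overlap, then Lcn2 at 114 ± 7.13. Below these came Cd177 at 45.6 ± 2.31 and Camp at 42.6 ± 1.41, which also overlap, then Retnlg at 15.4 ± 2.51 and Ly6g at 1.67 ± 0.363. The order was less clear in CIA, where the neighbours overlap at most steps. Lcn2 at 193 ± 47.8 overlapped Ngp. Retnlg at 85.9 ± 19.4, Ltf at 84.3 ± 27.3, Chil3 at 50.1 ± 18.2 and Cd177 at 48.5 ± 14.7 each overlapped the next, as did Camp at 10.7 ± 4.94 and Ly6g at 9.11 ± 2.90. By mean, Retnlg came directly after Lcn2 in CIA, though Ltf was above it in CIA replicate 3, and next to last with luteolin. In the libraries labelled control Lcn2 followed Ngp at 58.8 ± 4.49, and Ltf at 13.5 ± 1.90 overlapped Chil3 at 13 ± 1.81. Retnlg at 8.25 ± 2.21, Cd177 at 5.13 ± 1.76 and Camp at 3.86 ± 0.853 each overlapped the next there, and Ly6g was at 0.363 ± 0.0237.

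As a share of the summed level per kilobase, Ngp made up 70.0% ± 0.478 in CIA with luteolin, 31% ± 1.43 in CIA and 50.7% ± 3.0 in the libraries labelled control (SD, n = 3). Lcn2 made up 4.29% ± 0.346 with luteolin, 27.7% ± 2.54 in CIA and 28.4% ± 4.32 in control. Retnlg made up 0.581% ± 0.0840 with luteolin, 12.4% ± 0.548 in CIA and 3.90% ± 0.668 in control. In CIA the libraries were close to each other in the shares of Ngp, Lcn2 and Retnlg although their sums were not. Other shares were less even there, with Camp at 1.44%, 1.16% and 1.94% and Chil3 at 7.41%, 5.64% and 8.41%. In the libraries labelled control, Lcn2 made up 29.0%, 32.3% and 23.7%.

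**Figure D3:**
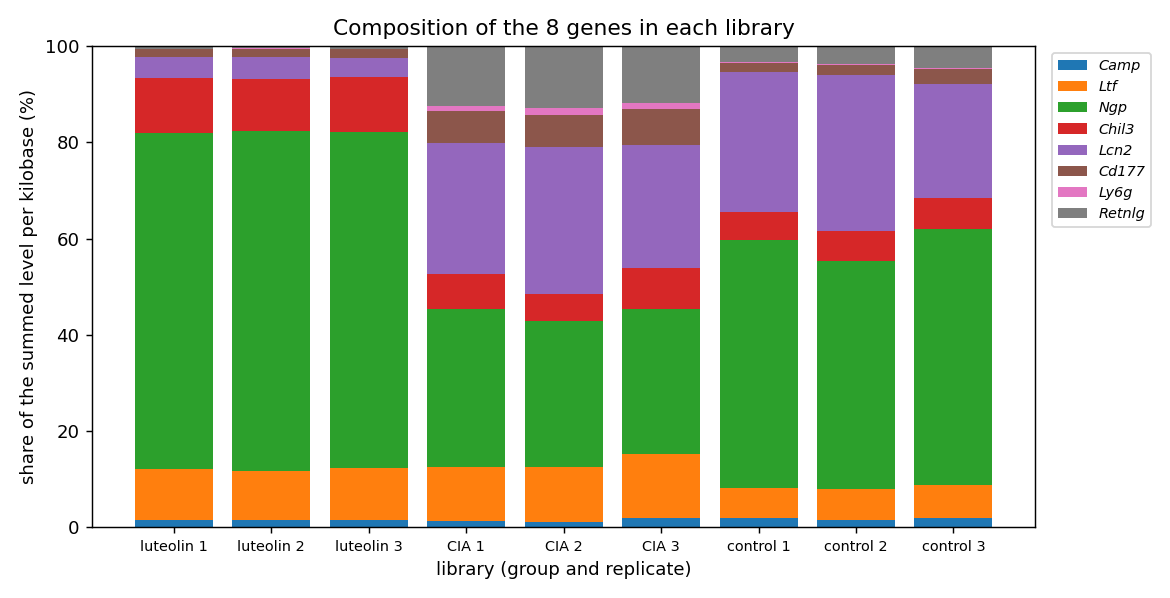
Share of each gene in the summed level per kilobase of the 8 genes (bars stacked to 100 percent, one bar per library). Ngp takes about the same share in the 3 libraries of CIA with luteolin, 69.7% to 70.6%, and 30.2% to 32.7% in the 3 of CIA, where Lcn2 and Retnlg are wider.

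Ratios of genes within a library do not depend on how libraries are scaled. Ngp over Retnlg, in CPM, was 244, 295 and 217 in CIA with luteolin, 5.40, 4.84 and 5.29 in CIA, and 31.4, 26.5 and 23.5 in the libraries labelled control. No value of one group reaches another. Ltf over Ly6g was 627 ± 116, 34.4 ± 5.92 and 138 ± 29.0 in CIA with luteolin, CIA and control (SD, n = 3). Retnlg over Ly6g, by contrast, was 5.90 ± 1.04 with luteolin and 6.09 ± 0.792 in CIA, which overlap, and 14.5 ± 4.93 in control.

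Set against S100a9 in the same library, the genes differed in kind. S100a9 itself was lower with luteolin than in CIA (log2 fold change -0.76 ± 0.17, edgeR adjusted p = 0.0044). The ratios therefore carry that difference as well as the gene's own. Ngp over S100a9 was 0.573 ± 0.0408 in CIA with luteolin, 0.0394 ± 0.00284 in CIA and 0.0801 ± 0.0180 in the libraries labelled control (SD, n = 3), so in CIA it was lower than in control although its CPM was higher. Chil3 over S100a9 was 0.122 ± 0.00968 with luteolin, against 0.0121 ± 0.00230 in CIA and 0.0132 ± 0.00331 in control, whose ranges overlap. Lcn2 over S100a9 was 0.0752 ± 0.00564 with luteolin, 0.0755 ± 0.00734 in CIA and 0.0949 ± 0.0160 in control, with all 3 ranges overlapping. Cd177 over S100a9, whose CPM overlapped between the CIA groups, was 0.0327 ± 0.00289 with luteolin, 0.0203 ± 0.00111 in CIA and 0.00914 ± 0.00398 in control, with no overlap. Ly6g and Retnlg stayed lower with luteolin on this scale, at 0.000401 ± 0.000108 against 0.00126 ± 0.000179 in CIA for Ly6g and 0.00231 ± 0.000428 against 0.00762 ± 0.000470 in CIA for Retnlg.

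**Figure D4:**
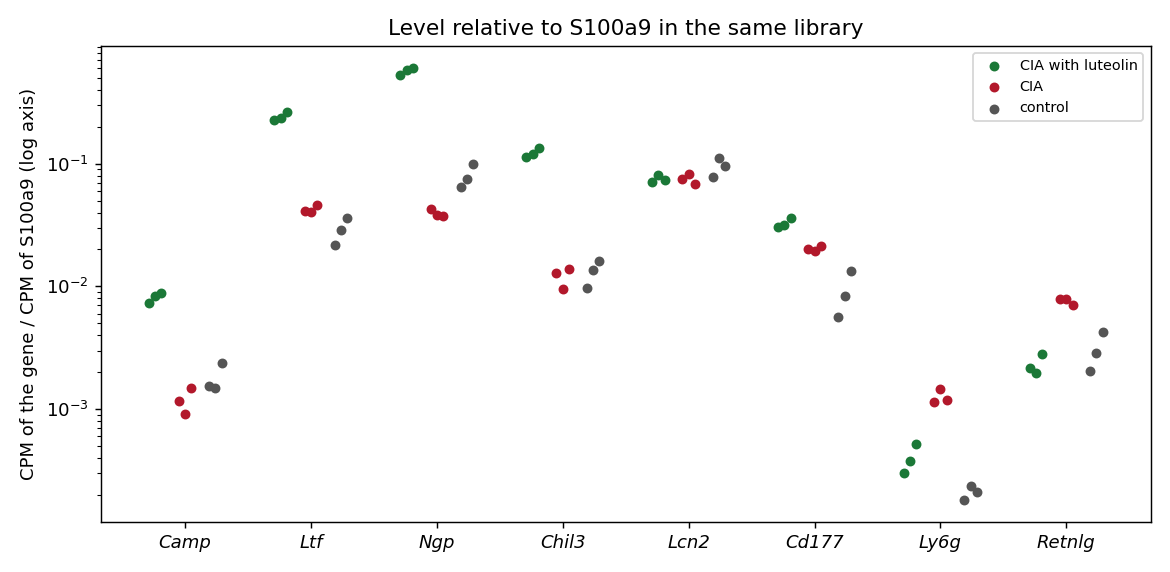
CPM of each gene divided by the CPM of S100a9 in the same library (log axis), with CIA with luteolin, CIA and control from left to right within each gene. The ranges of Lcn2 overlap in all groups, Camp, Ltf, Ngp and Chil3 are highest with luteolin, and Ly6g and Retnlg are highest in CIA.

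Across the 9 libraries the genes paired off by pattern. The measure is the root mean square difference of log2 CPM after each gene is centred on its own mean, and smaller is more alike. The closest pairs were Ltf with Chil3 at 0.385, Ngp with Chil3 at 0.397 and Camp with Chil3 at 0.448, while Ly6g with Retnlg stood at 0.639 and the most unlike pair, Ngp with Ly6g, at 2.31. Among 10981 other genes with a mean of at least 2 CPM, the 10 most like the mean of the 8 were Nhsl2 at 0.111 (25.5, 18.7 and 3.04 CPM on average in CIA with luteolin, CIA and control), Adgrg3, Abca13, Selp, Ifitm6, Tnfrsf4, Apoc2l, Apoc2, Gtf2ird1 and Alox5ap at 0.250. The mean of the 8 averages genes that differed in opposite directions with luteolin against CIA. Likeness to that mean is therefore not likeness to each of the 8. Adgrg3 encodes an adhesion receptor of granulocytes, and Alox5ap encodes the protein that presents arachidonic acid for leukotriene synthesis. Apoc2l and Apoc2 have nearly the same counts and cannot be taken as 2 genes. Picked after the values were seen, Cebpe stood at 0.296 from Ltf and Asprv1 at 0.249 from Retnlg, among the 3 closest genes of each. Monocyte markers were also among the 5 closest genes, Cx3cr1 at 0.255 from Ngp and 0.328 from Chil3 and Ccr2 at 0.249 from Camp.

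The other genes of the specific granules, 13 that are not among the 8, were divided between treated and untreated CIA. With luteolin against CIA, 7 of the 13 rose, 3 fell and 3, Olfm4, Lyz2 and Orm1, did not pass, with a median log2 fold change of 0.52, beside 23.1% of tested genes higher, 24.2% lower and a median of -0.04 over all tested genes. Cybb, the catalytic subunit of the phagocyte NADPH oxidase, was at 1672, 1329 and 1743 CPM with luteolin, against 326, 276 and 319 CPM in CIA, and rose (log2 fold change 2.37 ± 0.11, edgeR adjusted p = 1.32e-07). Its partner Cyba rose by 1.19 ± 0.15 (edgeR adjusted p = 0.000135). The 3 that fell were Mmp8, the neutrophil collagenase (-0.77 ± 0.18, edgeR adjusted p = 0.00547), the chitinase-like Chil1 (-0.79 ± 0.14, edgeR adjusted p = 0.00101) and Slpi, a protease inhibitor (-1.0 ± 0.23, edgeR adjusted p = 0.00528). Ptx3, a soluble pattern receptor, was among the genes that rose, with 298 counts over the 3 treated libraries against 6 over the 3 of CIA, of which 2 had none.

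In CIA against control, 9 of the same 13 rose, 3 fell and Lrg1 did not pass (median log2 fold change 1.5), beside 26.6% of tested genes higher, 24.5% lower and a median of -0.02. Mmp8, at 973, 1526 and 1414 CPM in CIA, against 173, 215 and 280 CPM in control, rose by 2.55 ± 0.19 (edgeR adjusted p = 7.72e-06). Cybb, Cyba and Ptx3 were the 3 that fell, with Cybb at a log2 fold change of -1.07 ± 0.10 (edgeR adjusted p = 3.23e-05). Without control replicate 2 or without CIA replicate 2, Ptx3 no longer passed. With luteolin against control 12 rose and none fell, beside 24.2% and 20.8% of tested genes, and Cyba did not pass.

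Of the 5 gelatinase granule genes, Mmp9, the gelatinase itself, was the one that changed in CIA with luteolin against CIA. It was at 49.1, 50.5 and 52.9 CPM with luteolin, against 121, 197 and 202 CPM in CIA (log2 fold change -1.77 ± 0.17, edgeR adjusted p = 1.78e-05). Of all tested genes, 23.1% were higher and 24.2% lower in that comparison. In CIA against control 4 of the 5 rose, beside 26.6% of tested genes, and Slc11a1 did not pass. Slc11a1 passed without CIA replicate 1, at a log2 fold change of 0.38. All 5 rose in CIA with luteolin against control, beside 24.2% of tested genes, though Slc11a1 no longer passed there in 5 of 16 alternatives. These were the replicate block and the fits without control replicate 2 or 3 or replicate 1 or 3 of CIA with luteolin.

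The mature neutrophil list has 33 genes, of which 32 were found by name and tested. Of these 6 rose, 13 fell and 13 did not pass in CIA with luteolin against CIA (median log2 fold change -0.30), beside 23.1% of tested genes higher and 24.2% lower. Over the alternatives 4 to 6 rose and 11 to 18 fell. Asprv1, an aspartic protease abundant in mature mouse neutrophils, was at 19.2, 21.9 and 23.2 CPM with luteolin, against 69.1, 106 and 129 CPM in CIA, and fell (log2 fold change -2.24 ± 0.19, edgeR adjusted p = 8.27e-06). The chemokine gene Cxcl2 fell by 2.55 ± 0.32 (edgeR adjusted p = 0.000127). Against these, Il1r2, a decoy receptor for interleukin 1, rose to 36.5, 35.8 and 34.9 CPM with luteolin, against 11.8, 13.7 and 10.7 CPM in CIA (1.57 ± 0.14, edgeR adjusted p = 9.00e-06), and Wfdc17 rose by 2.81 ± 0.22 (edgeR adjusted p = 4.12e-06). Named after their values were seen, the 4 stefin genes Stfa1, Stfa2, Stfa2l1 and Stfa3 fell, with log2 fold changes from -3.16 to -1.51, though they are close copies whose reads cannot be told apart with certainty. Csf3r, the receptor for the growth factor G-CSF, was at 146 ± 10.2 CPM with luteolin and 144 ± 34.6 in CIA (SD, n = 3; log2 fold change 0.02 ± 0.15) and did not pass.

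In CIA against control 28 of the 32 rose, 3 fell and Clec4e did not pass (median log2 fold change 1.90). Of all tested genes, 26.6% were higher and 24.5% lower there. Asprv1 rose by 3.54 ± 0.20 (edgeR adjusted p = 2.03e-06) and Cxcr2, the chemokine receptor that guides neutrophils out of the marrow, by 2.38 ± 0.15 (edgeR adjusted p = 2.89e-06). Wfdc17, at a log2 fold change of -0.89 ± 0.23 (edgeR adjusted p = 0.00824), and Prok2, at -1.03 ± 0.13 (edgeR adjusted p = 0.000155), were among those that fell. In CIA with luteolin against control 26 rose and 2 fell, including Prok2, beside 24.2% of tested genes higher and 20.8% lower.

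**Figure D5:**
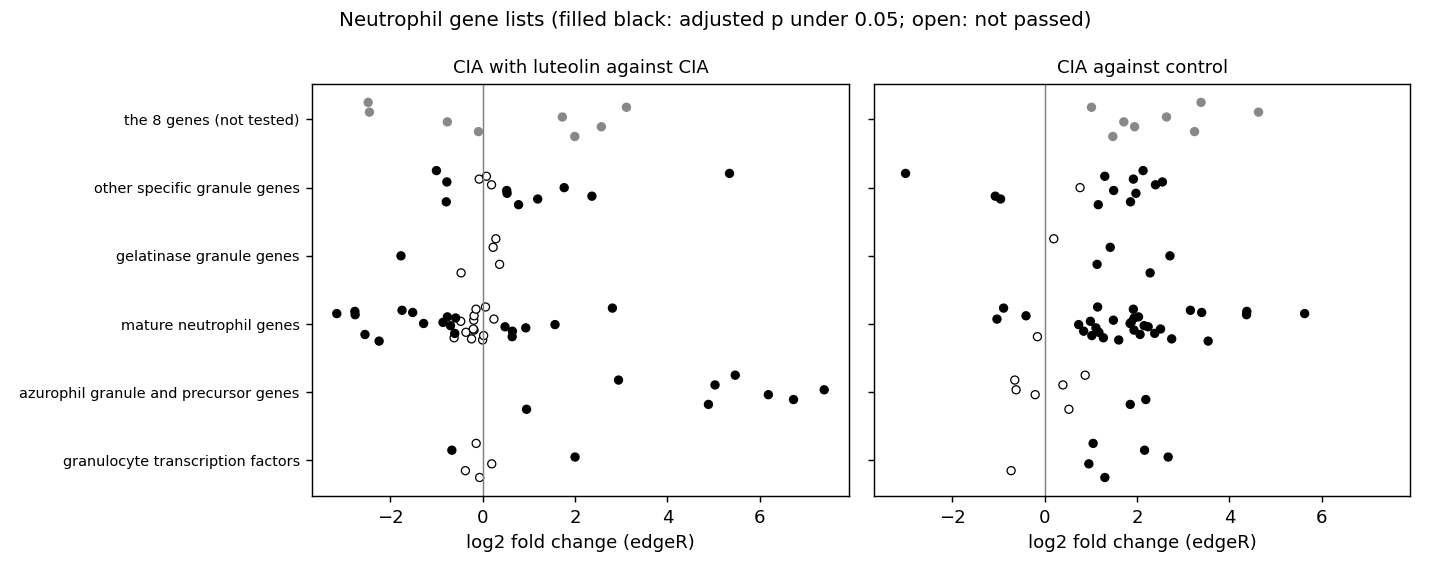
Log2 fold change (edgeR) of each gene of the neutrophil lists, one point per gene, in CIA with luteolin against CIA (left) and in CIA against control (right); filled black points passed an adjusted p of 0.05, open points did not, and the 8 genes in grey were not tested. On the left the mature list lies on both sides of 0, 6 up and 13 down, and all 8 azurophil genes lie above 0; on the right 28 of 32 mature genes rose.

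The earliest granule genes moved with Ngp, Ltf, Camp and Chil3 in the treated libraries. All 8 azurophil granule and precursor genes rose in CIA with luteolin against CIA (median log2 fold change 5.25), beside 23.1% of tested genes. Mpo, myeloperoxidase, was at 249, 293 and 241 CPM with luteolin, against 1.92, 1.26 and 1.46 CPM in CIA (log2 fold change 7.39 ± 0.33, edgeR adjusted p = 1.10e-07). Fcnb, a ficolin of promyelocytes and myelocytes, rose by 6.18 ± 0.24 (edgeR adjusted p = 3.93e-08), Ctsg by 4.89 ± 0.21 (edgeR adjusted p = 8.06e-08) and Elane by 6.73 ± 0.30 (edgeR adjusted p = 1.02e-07). In CIA against control 2 of the 8 rose, Elane and Ctsg, and 6 did not pass, beside 26.6% of tested genes higher. Elane was near the floor there, with 26 counts over the 3 CIA libraries and 6 over the 3 labelled control. Over the alternatives 1 to 3 of the 8 rose in that comparison. Ngp over Mpo, as a ratio of CPM, was 8.76 ± 0.997 with luteolin, 179 ± 62.7 in CIA and 65.8 ± 30.8 in the libraries labelled control (SD, n = 3).

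Of the 6 granulocyte transcription factors, Cebpe rose in CIA with luteolin against CIA, at 28.1, 22.2 and 19.7 CPM, against 4.14, 5.65 and 7.77 CPM in CIA (log2 fold change 2.00 ± 0.23, edgeR adjusted p = 6.78e-05). Cebpa, Cebpb, Cebpd and Spi1 did not pass. Gfi1 fell by 0.67 ± 0.24 (edgeR adjusted p = 0.0446), a call that ended in 10 of 16 alternatives. Beside these calls, 23.1% of tested genes were higher and 24.2% lower in CIA with luteolin against CIA. In CIA against control 5 of the 6 rose, beside 26.6% of tested genes, and Cebpb did not pass. Cebpe rose there by 2.67 ± 0.28 (edgeR adjusted p = 4.88e-05).

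Markers of other cell types also differed between the groups, not all in one direction. The counts below stand beside 23.1% of all tested genes higher and 24.2% lower in CIA with luteolin against CIA. In CIA against control those shares were 26.6% and 24.5%. With luteolin against CIA 7 of 8 monocyte markers rose, and their sum was 508 to 565 CPM with luteolin, 92.9 to 131 CPM in CIA and 92.4 to 105 CPM in the libraries labelled control, with F13a1 at 98.4 to 105 CPM against 4.61 to 9.36 CPM in CIA. Of 12 macrophage markers 10 rose and 1 fell with luteolin against CIA (median log2 fold change 5.56), whereas 2 rose and 9 fell in CIA against control (median -3.36). Their sums were 661 to 868, 529 to 983 and 500 to 543 CPM in the same order of groups, of which Hmox1, which did not pass with luteolin against CIA, made 482 ± 94.9, 619 ± 220 and 325 ± 48.0 CPM (SD, n = 3). Of 7 tested eosinophil markers 5 rose, with sums of 85.7 to 107, 10.4 to 16.1 and 1.96 to 3.78 CPM, and Ear1 was at 0 in control. T cell markers summed to 433 to 460, 446 to 720 and 242 to 268 CPM, with 4 of 12 lower in CIA with luteolin against CIA, or 7 without CIA replicate 1. B cell markers summed to 436 to 539, 308 to 1824 and 2127 to 2216 CPM, with 4 of 10 lower in that comparison. That B cell count was 10 without CIA replicate 3, 2 without CIA replicate 2, and 1 without CIA replicate 1 or without any single library of CIA with luteolin. Erythroid markers summed to at most 5.95 CPM in any library. Of the 5 tested, 4 were lower in CIA with luteolin against CIA, or 1 to 5 over the alternatives. The part of these cell types in the levels of the 8 genes was not tested, and no defining marker of monocytes, macrophages, T cells or B cells was at 0 in a whole group.

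Relatives of the 8 genes did not all move with them. Ly6i, of the same family as Ly6g, had 3348, 3025 and 2589 counts in CIA with luteolin, 43, 26 and 54 in CIA and 227, 193 and 193 in the libraries labelled control (log2 fold change 5.97 ± 0.22 for CIA with luteolin against CIA, edgeR adjusted p = 3.16e-08). Ly6c2, a monocyte surface antigen, rose by 3.29 ± 0.23 (edgeR adjusted p = 1.71e-06), so these genes and Ly6g lay on opposite sides. Trf, transferrin, the relative of lactoferrin, rose by 1.79 ± 0.15 (edgeR adjusted p = 8.27e-06).

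From Camp to Ltf on chromosome 9, with both included, the table lists 53 genes, counting all models. Besides Camp, Ngp and Ltf, 28 of them were tested. With luteolin against CIA 2 of the 28 rose and 9 fell (median log2 fold change -0.33), beside 23.1% of tested genes higher and 24.2% lower. Cdc25a rose by 0.97 ± 0.11 (edgeR adjusted p = 4.41e-05) and Tmie by 0.39 ± 0.12 (edgeR adjusted p = 0.0256). The 9 that fell are not all separate places, since Mir8107 lies within Nbeal2, Gm42763 within Setd2 and Gm43127 within Als2cl. Whether these models share reads was not tested. None of the 28 had a positive log2 fold change as large as those of Ltf, Camp and Ngp, 1.73 to 3.11, while Gm42763 was at -2.62 ± 0.35 (edgeR adjusted p = 0.000166).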

How the data were processed

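RNA was sequenced from 9 spleen libraries in 3 groups of 3, grouped by their labels. Per the labels' protocols, stranded mRNA libraries were read as pairs, mapped with a program written as STRA (2.5.3a), and reads on exons were counted with featureCounts from Subread 1.5.1; per the submitters' processing notes reads were trimmed with Trimmomatic 0.36 and the build is mm39, whereas the protocol names CHOK1GS. The deposited values are raw counts per gene. The strand setting is not given in the sources used here. Of counts from 1 to 10, 73.4% were even, beside 52.8% of those from 201 to 1000, as happens where the 2 reads of a fragment are each counted.

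Counts were fitted with edgeR 4.0.16 in R 4.3.3, with TMM scaling, filterByExpr, a term per group over all 9 libraries, and glmQLFTest, 2-sided, with Benjamini-Hochberg adjustment over 19348 genes and a threshold of 0.05. DESeq2 1.42.0 was an alternative. Of the 56860 genes, 17069 were at 0 in all libraries. Levels per kilobase use the length column of the authors' table. The procedure was checked on simulated counts. No libraries were duplicates; the chi-square per degree of freedom was 5.91 or more within groups. Same-numbered libraries deviated together with correlations of -0.032 to 0.224, so the numbers were not taken as pairs.

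The 8 genes and the lists were chosen with earlier results of these data known. Named are the 8 genes, up to 4 genes per list and comparison with the smallest p, genes needed to give a count of 5 or fewer, and the 10 genes nearest in pattern; a gene that this rule names is not reported here. Motifs were searched on both strands of RefSeq promoter windows.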

Additional observations from a re-analysis of the deposited data

How the results depend on the processing

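The 36 results (counts of genes past the threshold, the summed level and each gene's fold change) were recomputed under 16 alternatives: DESeq2 size factors, the DESeq2 test, no filter or a stricter one, only the 6 libraries compared, counts halved for mates of a pair, the replicate block, and each of the 9 libraries left out. One value changed sign. Cd177 in CIA with luteolin against CIA was -0.09 with all libraries and lay between -0.29 and 0.14 with 1 library left out, positive without CIA replicate 3. The other 383 values of single genes kept their direction, and the 144 counts stayed within 1.5 times. All 8 azurophil genes rose with luteolin, 7 under the stricter filter, which tests fewer genes. In CIA with luteolin against CIA, leaving out 1 library moved the mature neutrophil genes past the threshold between 15 and 23, beside 19, and the summed level between 1.45 and 1.80 (log2), beside 1.64. With the replicate number as a block, 9148 genes passed in CIA with luteolin against CIA, as many as without it, and 9794 in CIA against control, beside 9886. Since the labels do not say whether the numbers pair the libraries, and they were not taken as pairs, this is given only as a value.

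Of the 8 genes, depth limits Ly6g most, with 10 to 14 counts in the libraries labelled control, and mates counted separately make such counts fewer molecules than they seem.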
